A study of Mus musculus with 8 samples.

Results

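Interferon, guanylate-binding protein (GBP) and antigen presentation genes, 42 of the 25010 genes measured, were followed in the livers of mice with and without liver X receptors (LXRs). The members were taken from the deposited table by gene symbol, and all 42 were found. RNA of the left lobe of the liver was sequenced from 2 WT and 2 LXRDKO mice, 1 library per mouse. All 4 mice were 8 wk old, on a C57BL/6 background, kept on chow and fasted for 4 to 6 h. LXRDKO mice carry germline deletions of both LXRα (Nr1h3) and LXRβ (Nr1h2) in every tissue, so any cell type of the liver could differ between the genotypes. Values are normalized counts, that is, reads counted on a gene divided by 1 size factor per liver. Livers are named by the replicate number of their labels.

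Interferons are secreted proteins that warn cells of infection. Type I interferons signal through a transcription factor complex that holds Stat2 and Irf9 and binds a promoter motif named the interferon-stimulated response element (ISRE). Genes that answer to interferon gamma often carry another motif, the gamma-activated sequence (GAS). The genes they switch on include the GBPs and the immunity-related GTPases (IRGs), which attack vacuoles that hold intracellular pathogens, antiviral effectors such as Rsad2 and Bst2, and the machinery that displays peptides on MHC molecules. In liver, hepatocytes, Kupffer cells and sinusoidal endothelial cells all respond to interferons, while MHC class II is largely a mark of professional antigen-presenting cells. LXRs are sterol-activated nuclear receptors that also limit inflammatory gene expression in macrophages.

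The deleted receptors checked the labels. Nr1h3 had 5785 and 5322 normalized counts in WT, against 1712 and 1826 in LXRDKO, and Nr1h2 had 2987 and 3110 in WT, against 925 and 1003 in LXRDKO (log2 fold changes −1.65 and −1.66, adjusted P = 0.0147 for both, limma). Between 55772659 and 72842744 reads per liver fell on genes. The fewest reads of a member in any liver were 25, and mean levels of members ran from 74.1 (Gbp6) to 110584 (B2m) normalized counts, so all 42 members passed the minimum mean of 10. Sums over 5 hepatocyte markers lay between 6047111 and 7347360 normalized counts in the 4 livers. The log2 fold changes of these 5 ran from −0.14 to 0.60 (median −0.07), with 3 below 0 and 2 above. Limma called 0 of them and DESeq2 called 1 higher. All these levels come from whole tissue, in which fewer cells of a type and less RNA per cell cannot be told apart.

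One member, Gbp2b, fell in LXRDKO livers and none rose. Genotypes were compared as log2(normalized count + 1) with limma over 15578 genes, and a gene was called at a Benjamini-Hochberg adjusted P value under 0.05. By this rule 0.186% of all genes tested were called lower and 0.135% higher in LXRDKO, against 1 of 42 members (2.38%) lower and 0 higher. At an unadjusted P value under 0.05, 5 members (11.9%) were lower and 0 higher, beside 7.5% and 5.77% of all genes. The 5 were Gbp2b, Iigp1, Stat2, Bst2 and Xaf1. DESeq2 on the recovered reads called Gbp2b and Bst2 lower and 0 members higher, where it called 2.03% of all genes lower and 1.56% higher. The quasi-likelihood test of edgeR called Gbp2b alone, with 0.191% of all genes called lower and 0.121% higher.

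Most of the other members had a log2 fold change below 0 with a 95% interval that held 0. A value below 0 was found for 33 of 42 members (78.6%), beside 50.9% of all genes, and the median was −0.28, beside −0.00 over all genes. Without Gbp2b the members ranged from −0.69 to 0.37. The genotypes did not overlap for 11 members. LXRDKO was the lower genotype in 8 of them (19.0% of the members) and the higher in 3 (7.14%), beside 23% and 21.7% of all genes. The share of members without overlap was therefore no larger than that of other genes. The 95% interval of the log2 fold change held 0 for 37 of 42 members (88.1%), beside 86.7% of all genes. With 2 livers per genotype, the design allows no P value under 0.333 in an exact permutation test of a single gene, so the P values given borrow their spread from all genes through limma.

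**Figure D1:**
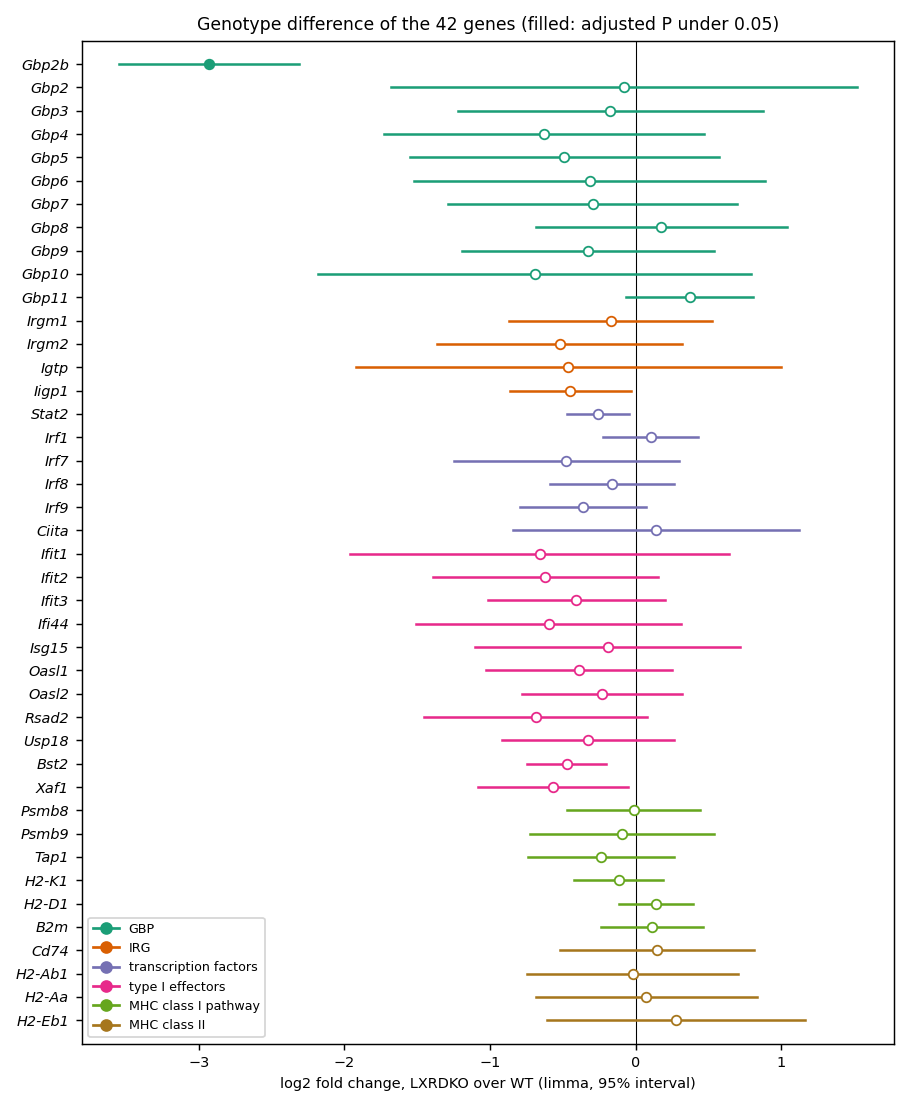
Log2 fold change of LXRDKO over WT for each of the 42 genes, with its 95% interval from limma (2 livers per genotype), colored by role. The filled point is Gbp2b at −2.93, and the intervals of 37 genes cross 0.

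Among the GBPs, large GTPases that coat and break pathogen-containing vacuoles, the data set Gbp2b apart from its neighbors. Gbp2b (ENSMUSG00000040264), the gene also known as Gbp1, lies on the forward strand of chromosome 3 from 142594847 to 142619179 in GRCm38. It had 193 and 229 normalized counts in WT, against 26.6 and 26.8 in LXRDKO. The genotypes did not overlap, and the livers of each genotype lay close together. Its level was 7.63-fold lower in LXRDKO (95% interval 4.96 to 11.7), a log2 fold change of −2.93 with a standard error of 0.25 and an adjusted P value of 0.0257 by limma. Ranked by size, this was number 8 of the 29 falls that limma called.

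The Gbp2b value held its size but not always its call. The adjusted P value was 7.59e-13 with DESeq2 and 0.0292 with edgeR. It was 0.154 without LXRDKO replicate 1, 0.129 without LXRDKO replicate 2 and 0.212 with limma without a variance trend. With 1 liver left out at a time, the log2 fold change lay between −3.06 and −2.81. Of the 50-base stretches of its transcripts, 1.84% also occur in another gene, which was Gbp2 in every case, so few reads of the length sequenced could be assigned to either.

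Gbp2b sits in a cluster of 5 GBP genes that spans 144 kb of chromosome 3, in the order Gbp5, Gbp7, Gbp3, Gbp2b and Gbp2. The next gene, Gbp2, had 343 and 963 normalized counts in WT, against 321 and 926 in LXRDKO. Its livers overlapped fully, since replicate 2 was high and replicate 1 low in either genotype. The log2 fold change of Gbp2 was −0.08 with a 95% interval from −1.68 to 1.52, the widest of the members. Gbp7, the GBP with the highest count, had 1072 and 1579 in WT, against 704 and 1594 in LXRDKO (log2 fold change −0.30, 95% interval −1.29 to 0.70). Gbp3 and Gbp5 overlapped in the same way, with log2 fold changes of −0.17 and −0.49.

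The promoters of Gbp2b and Gbp2 are shown because the 2 genes are neighbors with unlike values. They are the 250 bases before each start site in RefSeq (GRCm38.p6), chr3:142594597-142594846 for Gbp2b and chr3:142620413-142620662 for Gbp2, both on the forward strand. Capitals mark the ISRE letters, searched as GAAANNGAAA on both strands, which on the reverse strand read TTTCNNTTTC.
Gbp2b: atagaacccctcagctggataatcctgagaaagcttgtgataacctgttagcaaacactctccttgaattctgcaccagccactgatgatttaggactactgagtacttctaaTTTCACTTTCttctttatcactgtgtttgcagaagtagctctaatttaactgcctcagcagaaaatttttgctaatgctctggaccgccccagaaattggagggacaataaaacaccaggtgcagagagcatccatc
Gbp2: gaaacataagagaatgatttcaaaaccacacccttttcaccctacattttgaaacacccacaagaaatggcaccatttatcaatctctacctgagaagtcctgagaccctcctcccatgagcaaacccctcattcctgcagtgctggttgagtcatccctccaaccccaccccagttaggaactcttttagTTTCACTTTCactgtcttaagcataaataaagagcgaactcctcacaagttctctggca
Each holds 1 match on the reverse strand. It begins 137 bases before the start of Gbp2b and 59 bases before the start of Gbp2. An alignment of the 2 windows gave 108 identical bases among 162 aligned (66.7%).

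The other 6 GBPs form a cluster of 332 kb on chromosome 5, in the order Gbp8, Gbp9, Gbp4, Gbp10, Gbp6 and Gbp11. None of them was called. Gbp11, annotated as a polymorphic pseudogene in GENCODE M21, was the only GBP whose LXRDKO livers both exceeded the WT livers, at 617 and 736 in WT, against 762 and 997 in LXRDKO. Its log2 fold change was 0.37 (95% interval −0.07 to 0.81). Gbp10 ranged most widely between the LXRDKO livers, with 80.7 and 309 normalized counts, beside 273 and 241 in WT. Its log2 fold change was −0.69 (95% interval −2.18 to 0.79). Gbp4, Gbp6 and Gbp9 had log2 fold changes of −0.63, −0.32 and −0.33, and Gbp8 had 0.18.

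Gbp10 and Gbp6 had the largest shares of sequence in common with other genes among the 42 members. Gbp10 shares 84.1% of its 50-base stretches with other genes and Gbp6 shares 70.7%, so their levels depend on how multiply aligned reads were treated, which is not given in the sources used here. Gbp4, Gbp8 and Gbp9 overlap each other on the same strand. Shares were 19.2% for Gbp11, 18.1% for Gbp8 and 12.7% for Gbp7. Over the 11 GBPs the median log2 fold change was −0.32. The medians were −0.30 for the chromosome 3 cluster and −0.32 for the chromosome 5 cluster.

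**Figure D2:**
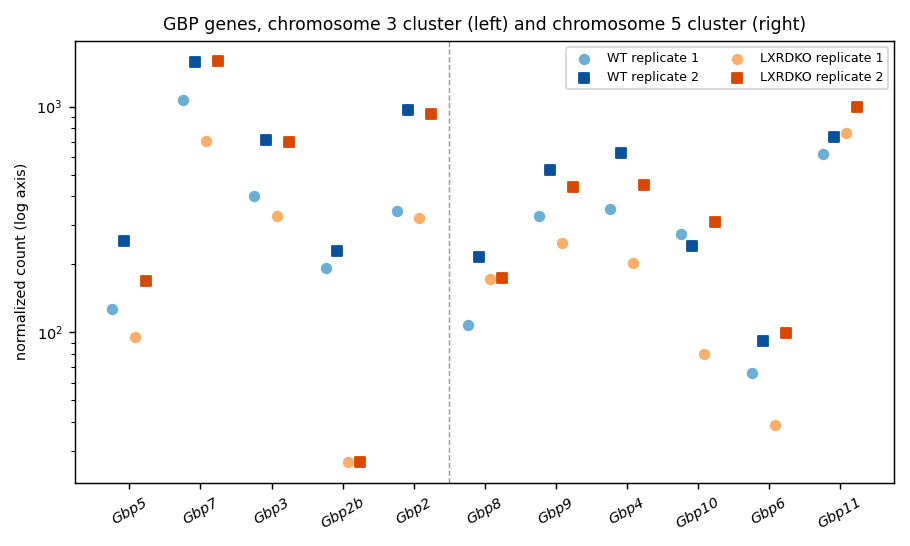
Normalized counts (log axis) of the 11 GBP genes in the 2 WT and 2 LXRDKO livers, in chromosome order, with the chromosome 3 cluster left of the dashed line and the chromosome 5 cluster right of it. Gbp2b is at 26.6 and 26.8 in the LXRDKO livers and at 193 and 229 in the WT livers, whereas the livers of its neighbors overlap.

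The IRGs, smaller GTPases induced by interferon gamma, were not called. Iigp1, an effector that loads onto vacuoles and the most abundant IRG, had 20315 and 24030.1 normalized counts in WT, against 14071 and 18632 in LXRDKO. The genotypes did not overlap, and the log2 fold change was −0.45 (95% interval −0.86 to −0.03, adjusted P = 0.344, limma). Per kilobase of exon its level was 3808 normalized counts in WT and 2808 in LXRDKO, the highest of the GBP and IRG genes. The regulatory IRGs Irgm1, Irgm2 and Igtp (Irgm3) overlapped between genotypes, with log2 fold changes of −0.17, −0.52 and −0.46. Their intervals all held 0. Igtp was lowest in LXRDKO replicate 1 at 939.7 and highest in WT replicate 2 at 3323.

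Irgm2 and Igtp overlap on chromosome 11, on the same strand, and 11.8% of the 50-base stretches of Igtp also occur in Irgm2. Their promoters are shown because both hold an ISRE and a GAS side by side. They are the 250 bases before the RefSeq starts, chr11:58214727-58214976 for Irgm2 and chr11:58199306-58199555 for Igtp in GRCm38.p6, both on the forward strand. Capitals mark ISRE letters and GAS letters, the latter searched as TTCNNNGAA, which reads the same on both strands.
Irgm2: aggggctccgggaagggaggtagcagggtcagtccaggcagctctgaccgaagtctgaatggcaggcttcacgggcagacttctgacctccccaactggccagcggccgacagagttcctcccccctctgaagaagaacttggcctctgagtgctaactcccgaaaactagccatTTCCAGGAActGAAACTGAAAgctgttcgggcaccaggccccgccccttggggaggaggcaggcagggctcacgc
Igtp: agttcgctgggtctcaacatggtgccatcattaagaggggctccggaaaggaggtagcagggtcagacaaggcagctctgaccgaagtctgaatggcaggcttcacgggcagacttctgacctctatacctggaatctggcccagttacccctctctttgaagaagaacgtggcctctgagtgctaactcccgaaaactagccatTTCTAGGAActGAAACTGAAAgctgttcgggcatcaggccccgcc
In each, the GAS lies just before the ISRE without touching it. The GAS begins 75 bases before the start of Irgm2 and 45 bases before that of Igtp. The windows align over 215 bases, of which 194 (90.2%) are identical.

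Of the 6 transcription factors, none was called. Stat2, the partner of Irf9 in the type I complex, had 4971 and 5212 normalized counts in WT, against 4216 and 4288 in LXRDKO. Its genotypes did not overlap, and it had the smallest standard error of the members, 0.085. The log2 fold change was −0.26 (95% interval −0.47 to −0.05, adjusted P = 0.301, limma). Irf9 had 2588 and 2801 in WT, against 1766 and 2488 in LXRDKO (log2 fold change −0.36, 95% interval −0.79 to 0.07), also without overlap. Irf7, which amplifies type I interferon production, overlapped between genotypes at −0.48. Irf1 and Irf8, which act downstream of interferon gamma and in myeloid cells, had log2 fold changes of 0.10 and −0.16. Ciita, the master regulator of MHC class II, had 0.14, and its interval from −0.84 to 1.12 was the widest of the 6.

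All 11 type I effectors had a log2 fold change below 0, with a median of −0.47 and a range from −0.69 to −0.19, and limma called none. Bst2 (tetherin), which holds budding virus at the cell surface, came closest. It had 6859.7 and 7761 normalized counts in WT, against 4958 and 5573 in LXRDKO. The livers did not overlap, and LXRDKO was the lower genotype. Bst2 was 1.39-fold lower in LXRDKO (95% interval 1.15 to 1.68), a log2 fold change of −0.47 with a standard error of 0.11. The adjusted P value was 0.182 with limma, 0.0431 with DESeq2 and 0.204 with edgeR.

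Bst2 lies on the reverse strand of chromosome 8 from 71534255 to 71537456, and none of its 50-base stretches occurs in another gene. Its promoter is shown because DESeq2 called Bst2 and because its ISRE and GAS letters overlap. The 250 bases before its RefSeq start are chr8:71537473-71537722 in GRCm38.p6, given here on the reverse strand, with ISRE and GAS letters in capitals.
Bst2: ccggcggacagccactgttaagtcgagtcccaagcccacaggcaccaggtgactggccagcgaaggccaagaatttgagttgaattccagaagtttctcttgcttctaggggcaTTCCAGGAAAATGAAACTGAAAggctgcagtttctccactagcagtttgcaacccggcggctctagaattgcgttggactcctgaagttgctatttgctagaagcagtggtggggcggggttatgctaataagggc
A pair of ISRE matches that overlap each other begin 130 and 124 bases before the start. A GAS match that begins 136 bases before the start overlaps the first of them.

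Xaf1, a promoter of apoptosis that interferon induces, had 481 and 561 normalized counts in WT, against 295 and 415 in LXRDKO. Its livers did not overlap, and the log2 fold change was −0.57 (95% interval −1.08 to −0.06, adjusted P = 0.335, limma). Rsad2 (viperin), which makes a chain-terminating nucleotide, had 468 and 647 in WT, against 257 and 452 in LXRDKO. These livers did not overlap either, although WT replicate 1 and LXRDKO replicate 2 were close, and the log2 fold change was −0.69 (95% interval −1.45 to 0.08).

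The other 8 effectors overlapped between genotypes. Ifit1, Ifit2 and Ifit3, which bind viral RNA or each other, had log2 fold changes of −0.66, −0.62 and −0.41, and 51.2% of the 50-base stretches of Ifit3 also occur in its copy Ifit3b. Ifi44 had −0.60. The ubiquitin-like protein Isg15 and the protease Usp18, which removes it, had −0.19 and −0.33. Oasl1 and Oasl2, relatives of the oligoadenylate synthetases, had −0.39 and −0.23.

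Of the MHC class I pathway, which shows peptides of cytosolic proteins to CD8+ T cells, no member was called and the median log2 fold change was −0.05. B2m, the invariant light chain, was the most abundant member per kilobase of exon at 123407 normalized counts in WT and 133764 in LXRDKO. It had 106257 and 106003 normalized counts in WT, against 112043 and 118032 in LXRDKO (log2 fold change 0.12, 95% interval −0.23 to 0.47). The heavy chain genes H2-K1 and H2-D1 lay on either side of 0. H2-K1 had 60979.5 and 66397 in WT, against 58199 and 59210.5 in LXRDKO, and H2-D1 had 22784 and 24847 in WT, against 25908 and 26501 in LXRDKO. Neither overlapped between genotypes, and the log2 fold changes were −0.12 (95% interval −0.42 to 0.19) and 0.14 (95% interval −0.12 to 0.39). Their shares of 50-base stretches found in other genes were 9.63% and 12.8%. The immunoproteasome subunits Psmb8 and Psmb9 and the peptide transporter Tap1 overlapped, at −0.01, −0.09 and −0.24. Psmb9 and Tap1 overlap on opposite strands.

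MHC class II genes, which present peptides taken up from outside the cell to CD4+ T cells, varied between mice more than between genotypes. Cd74, the invariant chain, had 4947 and 8528 normalized counts in WT, against 8118 and 6389 in LXRDKO. The WT livers lay outside the LXRDKO livers on both sides, and the log2 fold change was 0.15 (95% interval −0.52 to 0.82). H2-Ab1, H2-Aa and H2-Eb1, the chains of the peptide-binding molecules, showed the same order of livers, with WT replicate 2 highest and WT replicate 1 lowest. Their log2 fold changes were −0.02, 0.07 and 0.28. The median over the 4 genes was 0.11. Sums over 7 conventional dendritic cell markers were 687 and 850 in WT, against 890 and 749 in LXRDKO. They were lowest in WT replicate 1 as well, but highest in LXRDKO replicate 1, unlike the MHC class II genes. Of the 7 markers, 4 had a log2 fold change below 0 and 3 above, with a median of −0.19. Sums over 5 B cell markers were 609 and 501 in WT, against 440 and 223 in LXRDKO. Of these 5, 4 had a log2 fold change below 0 and 1 above, with a median of −1.31. The part of dendritic cells and B cells in the MHC class II values was not tested.

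The members varied widely between mice of the same genotype. Their median standard error was 0.29, beside 0.17 over all genes tested. WT replicate 2 was above WT replicate 1 for 39 of 42 members (92.9%), beside 49.5% of all genes, by a median of 0.45 on the log2 scale. LXRDKO replicate 2 was above LXRDKO replicate 1 for 37 members (88.1%), beside 50.3%, by a median of 0.54. Both held for 34 members (81.0%), beside 24.4% of all genes. Over all genes the median absolute difference was 0.18 in WT and 0.17 in LXRDKO. WT replicate 2 was the highest liver for 31 members and LXRDKO replicate 1 the lowest for 31 members (73.8% each), beside 24.6% and 23.9% of all genes.

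**Figure D3:**
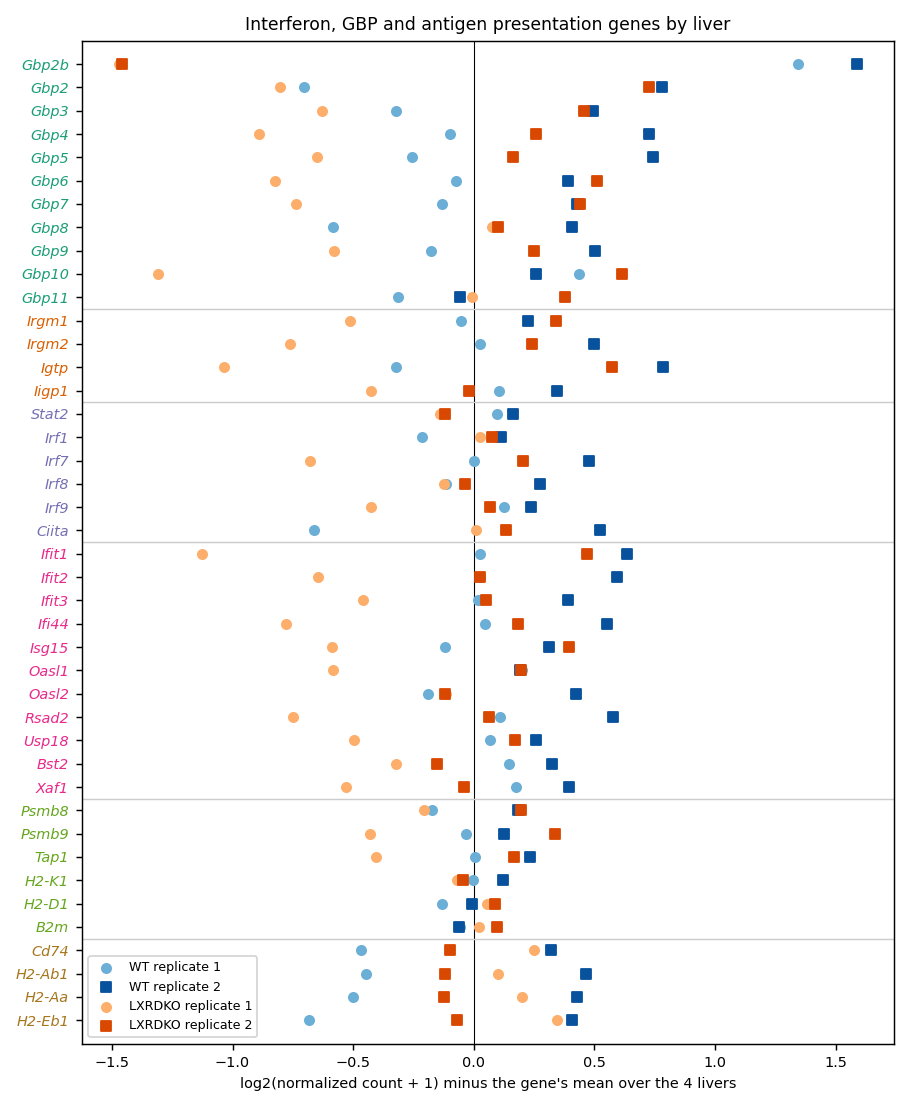
Each of the 42 genes in the 4 livers, as log2(normalized count + 1) minus the mean of the gene over the livers, with gene names colored by role. LXRDKO replicate 1 is the leftmost point for 31 genes and WT replicate 2 the rightmost for 31 genes, Gbp2b among them both times. Gbp2b is 1 of 8 genes with both LXRDKO livers below both WT livers, and 3 genes have them above.

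The role groups differed in where the mice differed. The 11 GBPs varied by a median of 0.68 in WT and 1.08 in LXRDKO, and the 4 IRGs by 0.38 and 0.93. The type I effectors varied by 0.43 and 0.67 and the MHC class I pathway by 0.14 and 0.24. The 6 transcription factors differed more in WT, with a median of 0.36, than in LXRDKO, with 0.10. The 4 MHC class II genes differed by 0.92 between the WT livers and were lower in LXRDKO replicate 2 than in LXRDKO replicate 1, with −0.33. Oasl2 was the only other member not higher in LXRDKO replicate 2. For 16 members (38.1%), beside 34.7% of all genes, both differences within a genotype exceeded the difference between genotypes. Gbp2b differed by 0.25 in WT and 0.01 in LXRDKO, whereas Gbp2 differed by 1.49 and 1.53.

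**Figure D4:**
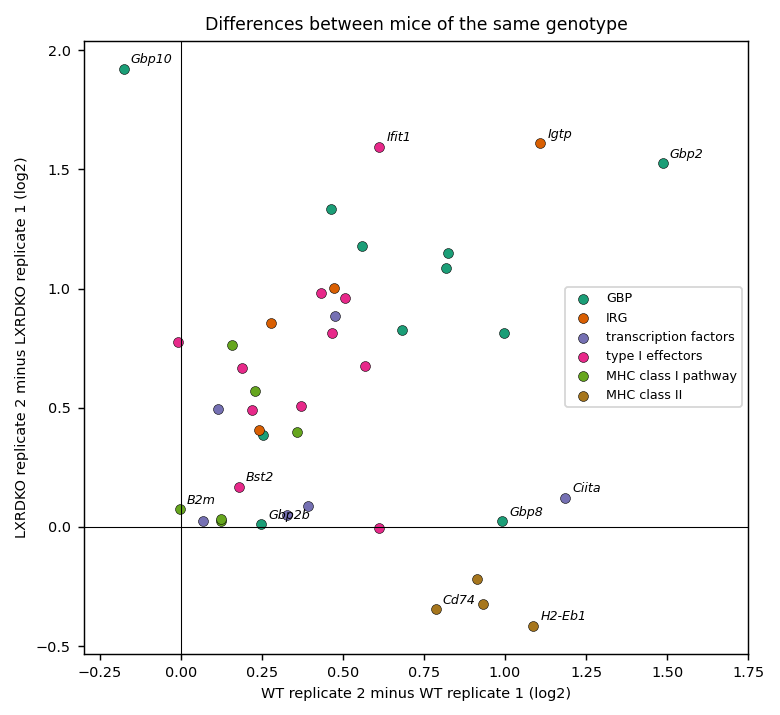
Difference between the 2 mice of a genotype for each of the 42 genes, on the log2 scale, with WT on the horizontal axis and LXRDKO on the vertical axis, colored by role. Most points (34 of 42) are above 0 on both axes, the 4 MHC class II genes are below 0 on the vertical axis, and Gbp2 is at 1.49 and 1.53.

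The common direction of the members depended on single livers. The median log2 fold change of the 42 members was 0.0034 once LXRDKO replicate 1 was omitted and −0.02 once WT replicate 2 was. Omitting WT replicate 1 gave −0.51, and omitting LXRDKO replicate 2 gave −0.65. Members below 0 numbered 21, 23, 39 and 32 in these 4 fits, beside 50.2% to 51.8% of all genes. The median of the GBPs was 0.27 and 0.01 when LXRDKO replicate 1 or WT replicate 2 was omitted, and that of the IRGs was 0.12 without LXRDKO replicate 1. The median of the type I effectors stayed below 0 in all 4 fits, between −0.78 and −0.15. That of the transcription factors stayed below 0 as well. In each such fit the lone liver of a genotype is assumed to vary like the livers of the other.

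**Figure D5:**
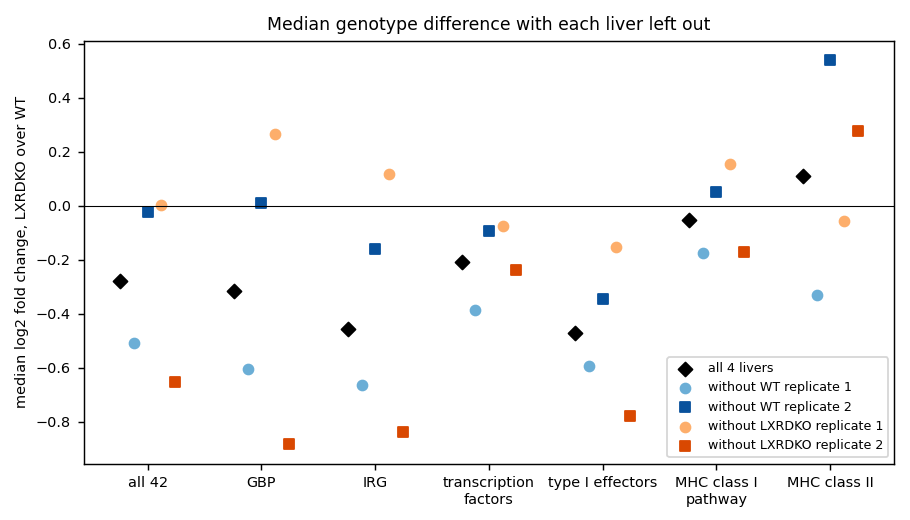
Median log2 fold change of LXRDKO over WT for the 42 genes and for each role group, with all 4 livers (diamonds) and with each liver left out (circles and squares). The median of the 42 genes runs from −0.65 without LXRDKO replicate 2 to 0.0034 without LXRDKO replicate 1. The type I effectors and the transcription factors stay below 0.

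Promoter letters were compared over the 31 members that have a RefSeq window of 250 bases before to 50 bases after the start. The ISRE letters occurred in 15 of them (48.4%), beside 3.99% of the 27025 genes with a window. These were Gbp2b, Gbp2, Gbp3, Gbp5, Gbp7, Irgm1, Irgm2, Igtp, Stat2, Ifit1, Ifit3, Isg15, Rsad2, Bst2 and B2m. By role they were found in all 5 GBPs and all 3 IRGs with a window and in 5 of 10 type I effectors, 1 of 5 transcription factors, 1 of 6 MHC class I pathway genes and 0 of 2 MHC class II genes. The GAS letters occurred in 9 members (29.0%), beside 9.55% of genes, and 5 members held both. An LXR motif, the direct repeat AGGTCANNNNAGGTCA searched on both strands, occurred in 0 of the 31 windows and in 4 of the 27025 genes. At 0.0148% of genes, letters this rare would be absent from almost any 31 windows, so the 0 says nothing about the members. The paper states that many important LXR sites depart from this perfect repeat. A match is a match of letters only, and the windows cover no enhancer.

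Gbp2b, which fell, and Gbp2, Gbp3, Gbp5 and Gbp7, which were not called, all held the ISRE letters. Among the 5 members with an unadjusted P value under 0.05, they were found in Gbp2b, Stat2 and Bst2. Xaf1 did not hold them, and Iigp1 had no window to search.

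Genes upstream of the members gave no call. Of 20 interferon genes searched by symbol, 1 was found, Ifng. It had 0 and 4 reads in WT and 2 and 1 reads in LXRDKO, too few to test. Levels of the others, type I interferon genes among them, could therefore not be compared. Limma and DESeq2 called 0 of 13 receptor and signalling genes, which had a median log2 fold change of −0.14, and 0 of 17 nucleic acid sensing genes, with −0.17. At an unadjusted limma P value under 0.05, the receptor and signalling list had 1 lower (Jak2) and 1 higher (Ifnlr1), and the sensing list had 4 lower (Ddx58, Dhx58, Mavs and Irf3), beside the 7.5% of all genes that were lower and the 5.77% that were higher. The counts were 0 by limma and DESeq2 also for 20 other MHC class I pathway genes (median −0.10) and 14 other MHC class II pathway genes (median −0.07). Unadjusted P values under 0.05 were found there for H2-Q10 and H2-T24, both lower, and for Rfxank, higher.

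Among 50 other interferon-induced genes tested, limma called 0 and DESeq2 called 1 lower. It was Helz2, a helicase that acts as a nuclear receptor coactivator, with 11589 and 11773 normalized counts in WT, against 7033 and 9143 in LXRDKO. Its livers did not overlap, and the log2 fold change was −0.54 with a standard error of 0.14 (adjusted P = 0.218 with limma and 0.0474 with DESeq2). At an unadjusted P value under 0.05, 9 of the 50 were lower and 1 higher, beside 7.5% and 5.77% of all genes. The median log2 fold change was −0.30, and 41 were below 0, beside 50.9% of all genes. The genotypes did not overlap for 22 of them, with LXRDKO lower for 20 (40.0%) and higher for 2, beside the 23% and 21.7% of all genes given above.

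Markers of other cell types differed between the genotypes beside these values. The sum over 8 Kupffer cell markers was 18086 and 22396 normalized counts in WT, against 10779 and 7889 in LXRDKO. Limma called 4 of the 8 lower (Cd5l, Cd163, Clec4f and Marco) and DESeq2 called 7, and none was at 0 in all livers. The 7 sinusoidal endothelial markers summed to 14105 and 12953 in WT, against 11082 and 8618 in LXRDKO. Limma called 2 of the 7 lower, Kdr and Cdh5. The genotypes overlapped for 3 of the 7, and 1 had a log2 fold change above 0. In the other direction, 5 stellate cell markers summed to 10952 and 11357 in WT, against 15460.3 and 17321 in LXRDKO, and 4 cholangiocyte markers to 644 and 675 in WT, against 895 and 1109 in LXRDKO. Limma called 0 of these 9 and DESeq2 called 2 stellate cell markers and 1 cholangiocyte marker higher. The Kupffer sum was lowest in LXRDKO replicate 2, where most members were higher than in LXRDKO replicate 1. Sums over 8 general macrophage markers were 12595 and 13556 in WT, against 14225 and 9057 in LXRDKO. Of these 8, 5 had a log2 fold change below 0 and 3 above, with a median of −0.24. The 7 T cell markers summed to 262 and 291 in WT, against 223 and 326 in LXRDKO. Of the 6 T cell markers tested, 5 had a log2 fold change below 0 and 1 above, with a median of −0.55. The T cell sum therefore does not stand for each marker. Sums over 6 NK cell markers, cells that make interferon gamma, were 46.8 and 139 in WT, against 74.0 and 61.1 in LXRDKO. Only 4 of the 6 passed the minimum mean, 3 of them below 0 and 1 above, with a median log2 fold change of −0.12. Sums over 5 plasmacytoid dendritic cell markers, a source of type I interferon, were 91.2 and 50.1 in WT, against 39.9 and 63.2 in LXRDKO. Only 3 of the 5 passed the minimum mean, 2 of them below 0 and 1 above, with a median log2 fold change of −0.96. The part of these cells in the level of Gbp2b and the other members was not tested.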

How the data were processed

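RNA of the left lobe of 4 livers was measured by RNA-Seq with polyadenylated RNA capture and single-end reads of 50 bases. Per the labels, the authors aligned reads to mm10 with STAR 2.6.0c and used DESeq2; the counting tool and its annotation are not given in the sources used here. The deposited values, a signal normalized by the authors, are gene counts divided by 1 size factor per library. All values (100%) were whole multiples of what 1 read is worth, within 0.01 reads, so reads were recovered. GENCODE M21 matched 24987 of 25010 gene identifiers and gave positions, exon lengths and shared transcript stretches. RefSeq gave promoter windows.

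The genotype test used limma 3.58.1 in R 4.3.3 with a variance trend, on log2 of the normalized count plus a pseudocount of 1. Genes needed a mean normalized count of 10 or more. Benjamini-Hochberg adjustment was over all of them, with a threshold of 0.05. On the recovered reads DESeq2 1.42.0 called 567 genes and edgeR 4.0.16 called 49, beside 50 by limma. Fold changes on this scale understate changes of low genes. Replicate numbers were not treated as pairing the mice, since no label says so. The correlation of replicate deviations between genotypes was 0.0031 over 15578 genes. A value over all genes does not describe a small set such as the members. The scripts were tested on simulated data. Alternatives were other pseudocounts, filters, scalings, variance models and tests, a replicate block, and leaving out each liver.

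Values per liver are given for members called by limma or DESeq2, with an unadjusted P value under 0.05, without overlap at an absolute log2 fold change of at least 0.5, or of the highest count in their role group. Others shown were chosen after their values were seen. From each pathway and marker list up to 3 called genes were to be named. For Kupffer cells 4 are named, and the stellate cell, cholangiocyte and hepatocyte markers that DESeq2 called are not named. The members and lists were chosen with earlier results of these data known. Chromatin accessibility was not analysed here.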

Additional observations from a re-analysis of the deposited data

How the results depend on the processing

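Gbp2b kept its direction under all 16 alternatives, and no member that was called changed sign. In all genes, the number called was 50 in the fit reported, 25 with a minimum mean of 50, 1 without the variance trend, 567 with DESeq2 and between 2 and 262 with 1 liver left out (262 and 157 on omitting WT replicate 1 or 2, and 2 and 8 on omitting LXRDKO replicate 1 or 2). The replicate block, in which mice are matched by replicate number alone, called 90 genes and the same single member, Gbp2b (adjusted P = 0.0309, limma). With the block, 14 members had an unadjusted limma P value under 0.05, beside 13.1% of all genes. Of these members 13 were lower, beside 7.45% of all genes, where the fit reported had 5. Members called lower numbered 0 without the trend (2 at an unadjusted P value under 0.05, beside 12% of all genes), 2 with DESeq2 and between 0 and 1 with 1 liver left out. The 0 came from omitting either LXRDKO liver, replicate 1 or replicate 2, where 3 and 20 members had an unadjusted P value under 0.05, beside 9.58% and 9.06% of all genes. Members without overlap that were lower numbered 5 instead of 8 after scaling to the library total (17.2% of all genes) and between 8 and 31 with 1 liver left out (31 without WT replicate 1 or LXRDKO replicate 2, beside 36.2% and 36% of all genes), and those that were higher between 3 and 11 (11 without WT replicate 2 and 10 without LXRDKO replicate 1, beside 35.4% of all genes in each). With 3 livers in place of 4, non-overlap is more frequent in any gene. The median log2 fold change of the members was −0.22 after scaling to the library total and between −0.65 and 0.0034 with 1 liver left out. The causes were not tested, except that fits with 1 liver left out hold fewer livers. The fewest reads of a member in a liver were 25, and with 2 mice per genotype the median standard error of the members was 0.29.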
